A study of Mus musculus with 4 samples.

Results

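The Shh-Lmbr1 limb enhancer domain was described here from the 5 genes Shh, Rnf32, Lmbr1, Nom1 and Mnx1 on mouse chromosome 5, out of 21631 protein-coding genes measured. Every peak was taken from 100 kb beyond Shh to 100 kb beyond Mnx1, a stretch of 1.22 Mb at chromosome 5, 28356840 to 29578470 (mm10). It held 9 of 21600 H3K4me3 peaks, 17 of 51737 CTCF peaks and 37 of 75897 RAD21 peaks. The peaks came from ChIP-exo, in which an exonuclease trims the immunoprecipitated DNA, in embryonic stem cells of the mouse line Bruce-4 (strain C57BL/6J), kept in serum/2i/LIF. All 4 libraries were of untreated cells of this line, 10000000 fixed with 1% formaldehyde for 10 min per library. By the labels used here they differed in the antibody, against H3K4me3, CTCF (2 libraries, 1 union list) or RAD21, and for CTCF in the replicate number. The lists gave positions alone, with 1 list per antibody and no depth or height of a peak, and a missing peak shows only that none was called.

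Shh encodes a secreted morphogen that patterns the limb bud, the neural tube and the gut. In the limb it is switched on by an enhancer that lies far away, within an intron of the gene Lmbr1. CTCF binds DNA and halts cohesin, the ring complex that extrudes chromatin loops and of which RAD21 is a subunit. Sites where both lie together mark many borders of chromatin domains. H3K4me3 is a histone mark of active and poised promoters. Embryonic stem cells are not a limb tissue, and the position of the limb enhancer was not among the annotations used here, so no peak was assigned to it.

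The labelled cell type was checked by H3K4me3 within 1 kb of a gene start. All 8 embryonic stem cell markers had it, among them Pou5f1 (a peak of 2019 bp), compared with 59% of protein-coding genes. Of markers of other cell types it was at 1 of 8 for fibroblasts (Thy1), 2 of 5 for primitive endoderm (Gata6 and Sox17) and 3 of 4 for trophoblast (Cdx2, Eomes and Gata3).

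Of the 5 member genes 4 had H3K4me3 within 1 kb of their start, set beside 59% of all protein-coding genes. The upstream sequences of these 4 are shown because H3K4me3 peaks reach into them and because RAD21 reaches into that of Rnf32. H3K4me3 covered all 250 bases in Rnf32, Lmbr1 and Mnx1 and the last 69 in Nom1. Each line gives 250 bases ending just before the gene's start, 5′ to 3′ on the gene's strand, from the RefSeq promoter table of GRCm38.p6. Capitals mark the 74 bases inside the RAD21 peak in Rnf32, and in the other genes the matches to GGGCGG (a GC box) or CCGGAAG (the core that ETS factors bind) on either strand.
Rnf32, chr5:29195743-29195992, plus strand: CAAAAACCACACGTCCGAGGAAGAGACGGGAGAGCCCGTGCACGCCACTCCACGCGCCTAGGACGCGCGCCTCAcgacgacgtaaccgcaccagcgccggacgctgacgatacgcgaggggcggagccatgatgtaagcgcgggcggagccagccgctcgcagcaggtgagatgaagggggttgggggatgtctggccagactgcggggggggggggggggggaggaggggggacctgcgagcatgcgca
Lmbr1, chr5:29378391-29378640, minus strand: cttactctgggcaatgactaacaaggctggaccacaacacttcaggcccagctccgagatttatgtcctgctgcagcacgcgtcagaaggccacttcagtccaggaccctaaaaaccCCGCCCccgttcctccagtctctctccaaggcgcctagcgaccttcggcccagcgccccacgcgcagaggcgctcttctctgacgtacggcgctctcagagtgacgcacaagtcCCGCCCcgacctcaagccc
Nom1, chr5:29434417-29434666, plus strand: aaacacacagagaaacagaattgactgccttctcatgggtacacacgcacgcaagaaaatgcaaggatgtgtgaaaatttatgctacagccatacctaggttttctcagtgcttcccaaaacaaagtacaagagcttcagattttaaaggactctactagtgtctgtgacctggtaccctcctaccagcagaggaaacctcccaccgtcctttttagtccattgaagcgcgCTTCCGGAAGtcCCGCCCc
Mnx1, chr5:29478471-29478720, minus strand: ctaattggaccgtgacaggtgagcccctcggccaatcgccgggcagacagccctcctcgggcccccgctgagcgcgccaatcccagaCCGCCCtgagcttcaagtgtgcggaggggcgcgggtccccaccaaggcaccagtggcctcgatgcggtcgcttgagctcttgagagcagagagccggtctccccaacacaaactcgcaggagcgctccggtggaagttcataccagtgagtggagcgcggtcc

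These upstream sequences differed in their CpG content. Rnf32 had 29 CpG dinucleotides in 250 bases, Mnx1 21, Lmbr1 18 and Nom1 7, compared with a median of 6 (quartiles 2 and 16) over 32575 RefSeq promoters. Rnf32 thus held more than 93.2% of them and Nom1 more than 53.4%. GGGCGG was found in each of the 4 and in 32.9% of all promoters of this length. CCGGAAG was found in Nom1 only, as overlapping matches on both strands, and in 6.96% of all promoters. CCAAT was in Mnx1 only, at 3 places (34.0% of all promoters), and TATAAA in none of the 4 (12.4%). A core of the CTCF motif matched once in Nom1 and in 2.08% of all promoters. No CTCF peak lay within 1 kb of the Nom1 start, and the nearest was 21269 bp away. These matches describe the letters of the window and not binding. The 4 sequences were taken because H3K4me3 reaches into them, whereas the 32575 promoters were not chosen by the mark. The motifs were chosen with these sequences in view, so the shares beside them are no test of enrichment.

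H3K4me3 at the member genes ranged from 904 to 1613 bp in length. Mnx1, a homeobox gene of motor neurons and pancreas, had the longest peak of the stretch, 1613 bp at 29477469 to 29479081, longer than 97.0% of the H3K4me3 list. Lmbr1, which encodes a multipass membrane protein, had 1406 bp at 29377620 to 29379025, over its start at 29378390 and longer than 93.1% of the list. At Rnf32, a RING finger gene, a peak of 1150 bp lay over the start at 29195993. Nom1, which encodes a nucleolar protein, had 956 bp over its start at 29434667. The median over all marked protein-coding genes was 922.5 bp, and all 4 of these genes lay above it, Nom1 by the least.

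Shh itself, at 28456840 to 28467101, had no H3K4me3 peak within 1 kb of an annotated end. A peak of 904 bp at 28464449 to 28465352 lay inside the gene, 1749 bp from its upper end. It was longer than 68.8% of the list, and longer than the peaks of 48.2% of marked protein-coding genes. A further peak of 504 bp lay outside the gene at 28447498 to 28448001. The lncRNA gene 9530036O11Rik starts at 28466984, inside Shh, and spans 252 kb above it. Its own start was 1632 bp from the 904 bp peak, and a 397 bp peak lay in its body at 28593590 to 28593986. With a window of 2.5 kb, Shh counted as marked and all 5 members had H3K4me3. With annotated ends in place of starts for every gene, Rnf32 was lost, since its start lies inside the annotated gene, and 3 of 5 members counted.

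**Figure D1:**
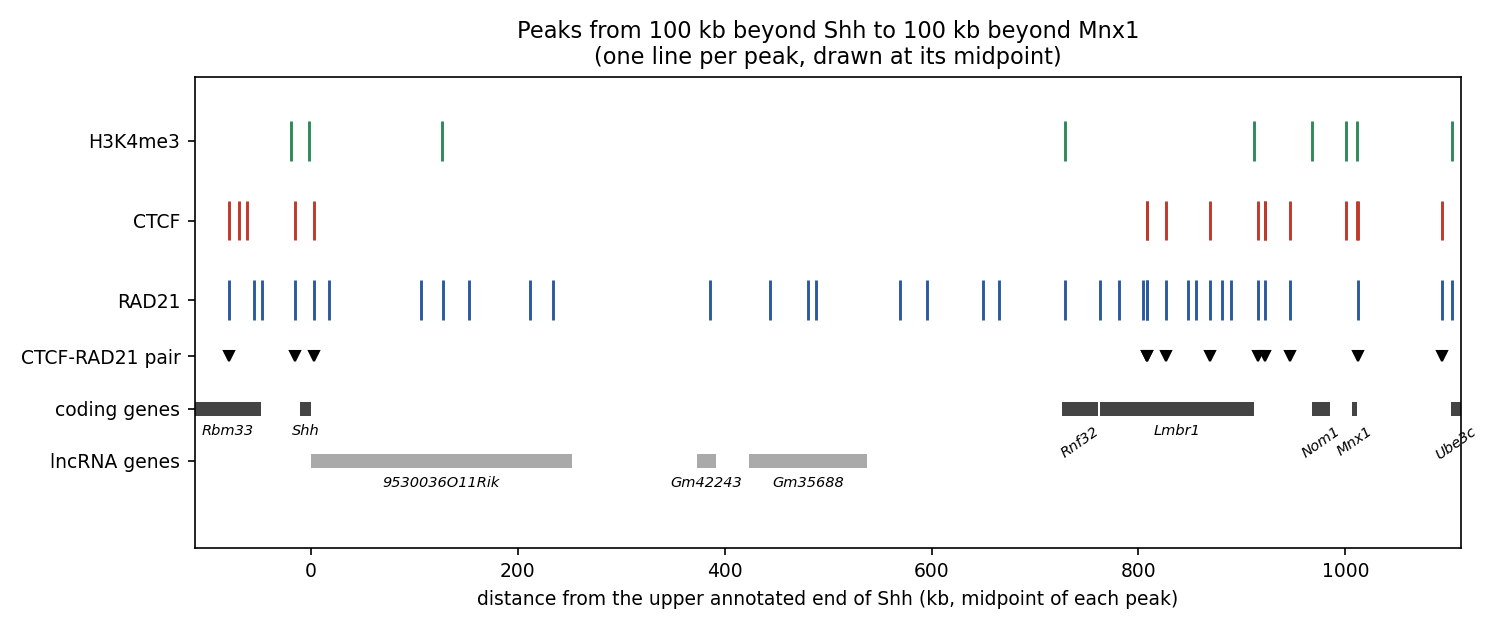
Map of the stretch from 100 kb beyond Shh to 100 kb beyond Mnx1, with each peak drawn as a line at its midpoint (x axis, distance from the upper annotated end of Shh in kb) and triangles for CTCF-RAD21 pairs. Pairs sit around Shh and from Lmbr1 onwards, and the CTCF row is empty for 805 kb between them, where the RAD21 row holds 18 peaks.

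No domain border was called in these data, so pairs of CTCF and RAD21 are given by their place along the stretch. A pair was counted where a CTCF and a RAD21 peak overlapped by at least 1 bp, and 12 of the 17 CTCF peaks were paired (70.6%, Wilson 95% interval 46.9 to 86.7%), compared with 81.9% of the whole CTCF list. The 12 pairs fell into 3 around Shh, 4 inside Lmbr1, 3 between Lmbr1 and Nom1, and 2 beyond Mnx1. Between Shh and Lmbr1 there was a single pair, the one nearest Shh, and none lay in Rnf32, Nom1 or Mnx1. RAD21 was paired less often, at 12 of 37 peaks (32.4%, interval 19.6 to 48.5%), compared with 55.9% of the whole list. No test was made of this difference, and the intervals cover counting error only. Requiring an overlap of at least 50% of each peak left 6 pairs. Allowing edges up to 500 bp apart gave 14 of 17 CTCF peaks paired (82.4%), close to the 84.5% of the whole list. With only peaks above each list's median length the order turned, with 7 of 8 CTCF peaks paired (87.5%) and 71.7% over the whole list.

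The Shh gene lay between 2 pairs that together spanned 18.7 kb. On its lower side a CTCF peak of 146 bp at 28451347 to 28451492 lay 5348 bp from the gene, wholly inside a RAD21 peak of 370 bp at 28451185 to 28451554. On its upper side a CTCF peak of 503 bp at 28469515 to 28470017 lay 2414 bp from the gene. It overlapped a RAD21 peak of 586 bp at 28469619 to 28470204 by 399 bp. This upper pair was the longest of the stretch in both lists, longer than 99.4% of CTCF and 99.3% of RAD21 peaks. The lower pair's RAD21 peak was longer than 93.1% of its list and its CTCF peak longer than 63.9%.

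Farther below Shh, inside Rbm33, which encodes an RNA-binding protein, another pair joined a CTCF peak of 213 bp at 28388350 to 28388562 to a RAD21 peak of 454 bp. The overlap was 106 bp, and the midpoints were 228 bp apart, the widest offset of the 12 pairs. Rbm33 also held 2 CTCF peaks without RAD21, of 65 and 39 bp.

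None of the 12 pairs of the stretch lay on an H3K4me3 peak. The share of all pairs on H3K4me3 was not counted here. Of all CTCF peaks 7.5% lay on one, and a count of 0 among so few pairs is near that share. H3K4me3 overlapped 2 of the 17 CTCF peaks, both without RAD21, compared with 7.5% of the whole CTCF list. The first was the Mnx1 peak, with a CTCF peak of 144 bp at 29478739 to 29478882, 269 bp upstream of the Mnx1 start. A RAD21 peak lay 343 bp from this CTCF peak, which would count as paired with edges up to 500 bp apart. The second was a peak of 700 bp at 29467700 to 29468399, between Nom1 and Mnx1, which held a CTCF peak of 39 bp. H3K4me3 also overlapped 2 of the 37 RAD21 peaks (9.7% over the whole list), both without CTCF, at the starts of Rnf32 (197 bp at 29195620 to 29195816) and of Ube3c (247 bp), a ubiquitin ligase gene. These counts of 2 of 9 H3K4me3 peaks each compare with 17.1% for CTCF and 31.5% for RAD21 over the whole list.

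**Figure D2:**
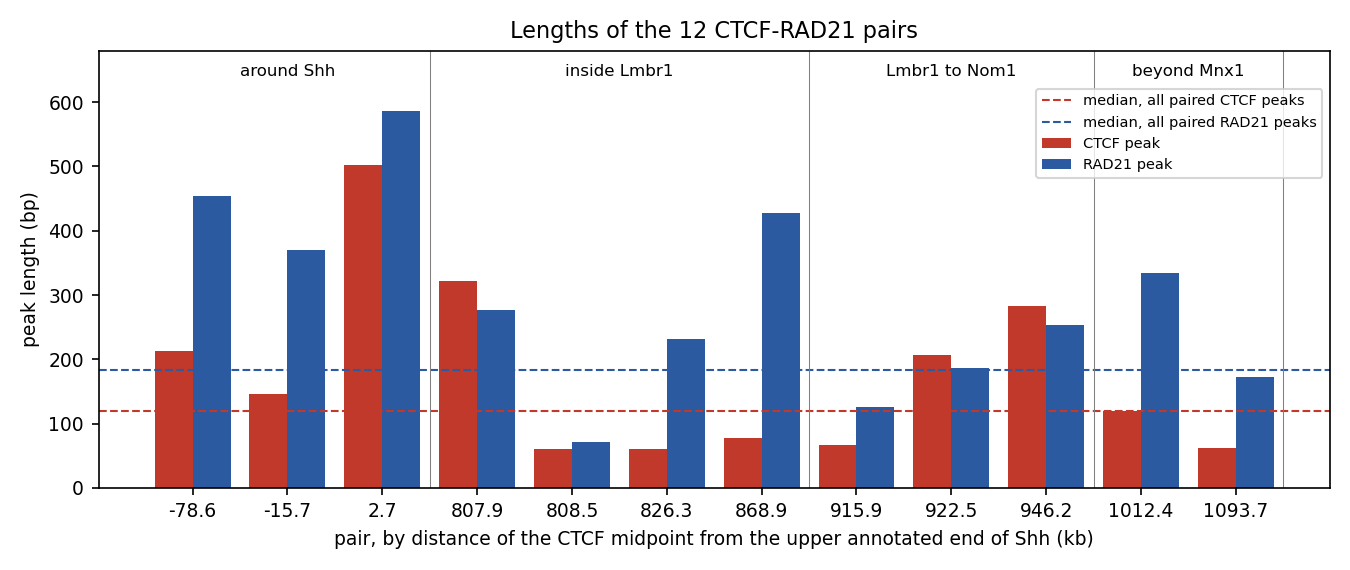
Length in bp (y axis) of the CTCF and RAD21 peaks of the 12 pairs, ordered along the chromosome and named by distance from the upper annotated end of Shh in kb (x axis); dashed lines are the medians of all paired peaks, 119 and 183 bp. The pair 2.7 kb above Shh is the tallest in both colours, and of the CTCF peaks inside Lmbr1 the first is 322 bp and the other 3 are 60 to 78 bp.

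Lmbr1 held 4 pairs and 6 RAD21 peaks without CTCF in 149 kb, and no CTCF peak without RAD21. The gene is read from its upper end downwards. The pair deepest in the gene lay 103286 bp from the upper end, with a CTCF peak of 322 bp at 29274814 to 29275135 and a RAD21 peak of 276 bp at 29274867 to 29275142. This CTCF peak was longer than 95.2% of the list. It lay 680 bp from the end of Gm42244, a lncRNA gene inside Lmbr1 that so counted as having CTCF and RAD21 at an end. A neighbouring pair only 0.4 kb away was made of short calls, 61 bp for CTCF at 29275523 to 29275583 and 71 bp, the shortest length in the list, for RAD21.

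The other 2 pairs inside Lmbr1 combined short CTCF with longer RAD21 peaks. At 29293377 to 29293436 a CTCF peak of 60 bp lay inside a RAD21 peak of 232 bp. At 29336001 to 29336078, 42343 bp from the upper end of the gene, a CTCF peak of 78 bp lay inside a RAD21 peak of 427 bp, the latter longer than 96.0% of its list. Between these pairs lay RAD21 peaks without CTCF of 71 bp at 29314754 to 29314824 and of 71 bp at 29322753 to 29322823. Whether a peak inside Lmbr1 lies at the limb enhancer was not analysed here. Nearer the start lay RAD21 peaks without CTCF of 278 bp at 29348109 to 29348386 and 188 bp at 29356690 to 29356877. The remaining 2, of 133 and 96 bp, lay below the deepest pair.

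Both the number and the kind of peaks in Lmbr1 were set beside other genes. Of 388 protein-coding genes within 10% of its length, 139 had at least 4 pairs (35.8%), and the median was 3. At least 6 RAD21 peaks without CTCF were found in 18 of the 388, where the median was 2. Among all 2427 protein-coding genes of at least 100 kb, 42.1% had at least 4 pairs, and 412 had at least 6 RAD21 peaks without CTCF, with a median of 3. The 3 genes most like Lmbr1 in these counts were Dok5 (5 pairs, 6 unpaired RAD21 peaks), Wrn (4 pairs, 6 unpaired) and Ankrd11 (4 pairs, 5 unpaired). Dok5 and Ankrd11 had 1 H3K4me3 peak inside, as Lmbr1 did, and Wrn had 0. The number of pairs in Lmbr1 fell to 2 with an overlap of at least 50% of each peak and to 1 with only peaks above each list's median length. That last setting keeps the deepest pair alone.

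**Figure D3:**
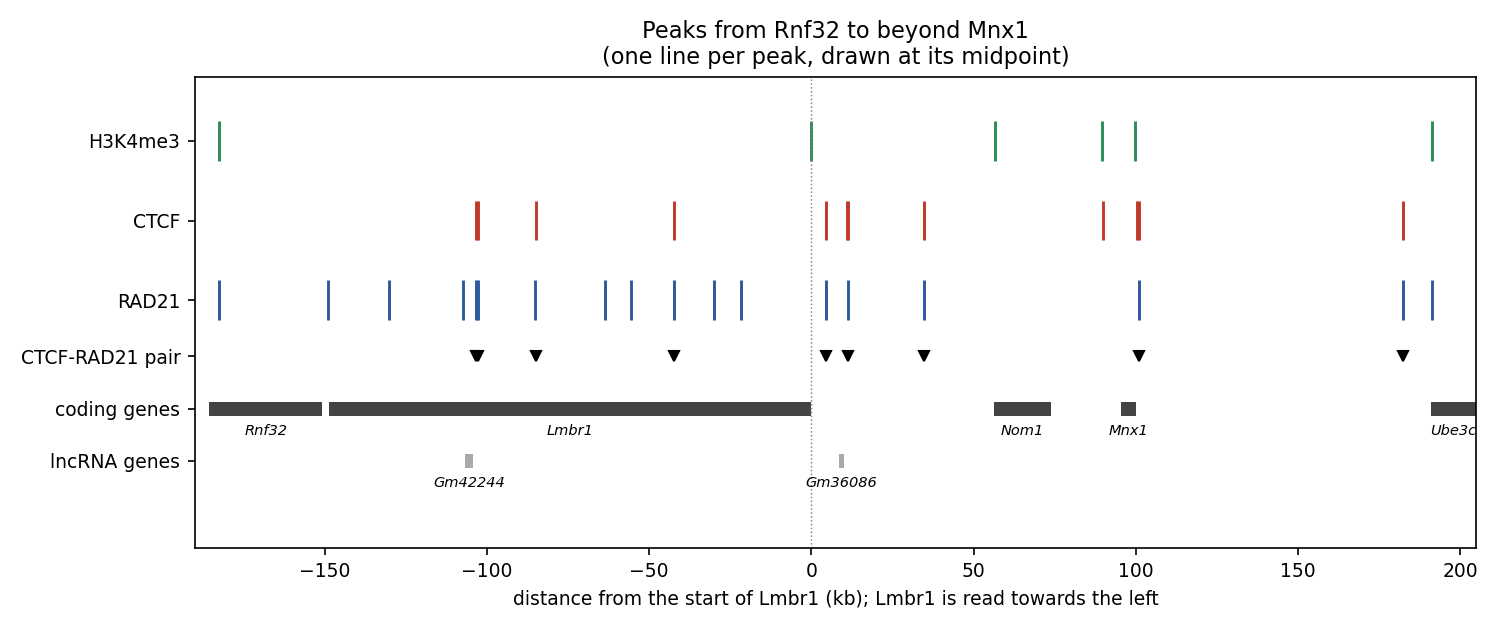
Map from Rnf32 to beyond Mnx1, with each peak drawn as a line at its midpoint against the distance from the Lmbr1 start in kb (x axis), and triangles for CTCF-RAD21 pairs. The H3K4me3 line at 0 has neither CTCF nor RAD21 within 1 kb, and pairs lie on both sides of it.

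The start of Lmbr1 had no CTCF or RAD21 within 1 kb, which 22.9% and 35.4% of protein-coding genes had. The nearest pair lay 4520 bp above the annotated end, with a CTCF peak of 67 bp at 29382941 to 29383007 inside a RAD21 peak of 126 bp. A CTCF peak of 207 bp at 29389524 to 29389730 and one of 283 bp at 29413116 to 29413398 followed, paired with RAD21 peaks of 186 and 254 bp. A CTCF peak of 57 bp at 29389214 to 29389270 had a RAD21 peak 216 bp away and was not counted as a pair. It was 912 bp from the start of the lncRNA gene Gm36086. From the deepest pair in Lmbr1 to the last before Nom1, 7 pairs lay within 139 kb.

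Mnx1 was the only member with CTCF and RAD21 within 1 kb of its start. Its H3K4me3 peak ended at 29479081, and a pair lay just beyond, 928 bp from the gene, with a CTCF peak of 119 bp at 29479398 to 29479516 inside a RAD21 peak of 334 bp. A pair within 1 kb was found at 16.9% of protein-coding genes. The last pair of the stretch lay at 29560819 to 29560880, where a CTCF peak of 62 bp was inside a RAD21 peak of 173 bp. It lay 8362 bp from the Ube3c start, which carried H3K4me3 of 911 bp and RAD21 without CTCF. Rnf32 had RAD21 within 1 kb (197 bp) and its nearest CTCF peak 78821 bp away, while Nom1 had neither within 1 kb.

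The stretch between the pair above Shh and the first pair in Lmbr1 held no CTCF peak over 805 kb, from 28470018 to 29274813. It contained 1 whole protein-coding gene, Rnf32, and 2 H3K4me3 peaks. Of 51717 stretches between neighbouring CTCF peaks in the genome 0.478% were at least as long, where the median was 17.0 kb. On chromosome 5 it ranked 17 of 3787 from the longest.

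Cohesin was called within this CTCF-free stretch all the same. It held 18 RAD21 peaks, or 22.4 per Mb, of 71 to 393 bp (median 117 bp, compared with 95 bp for all RAD21 peaks without CTCF). Among 597 CTCF-free stretches of at least 500 kb the median was 5.61 per Mb (quartiles 3.34 and 9.06), and 3 of them (0.503%) had more per Mb. This comparison was chosen after the values were seen and is no test. Without CTCF peaks of up to 39 bp and RAD21 peaks of 71 bp the stretch had 14.9 per Mb, and 14 of 664 stretches had more. With stretches from 250 kb up, 94 of 1750 had more, and with those from 750 kb up, 0 of 284. Sequence gaps and unmappable bases, which would lower the number per Mb, were not analysed here.

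**Figure D4:**
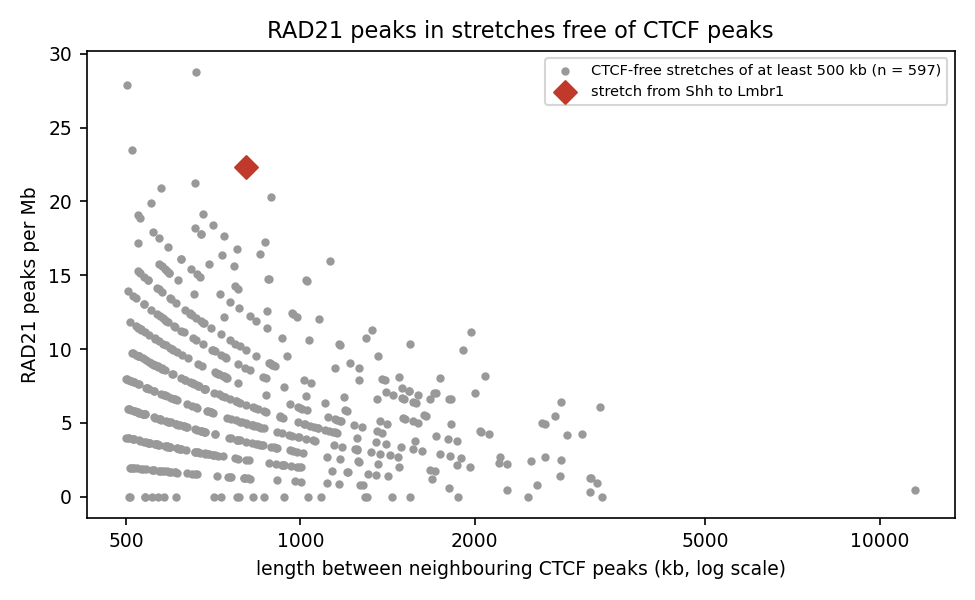
RAD21 peaks per Mb (y axis) against length in kb (x axis, log scale) for 597 stretches of at least 500 kb between neighbouring CTCF peaks, each a point. The stretch from Shh to Lmbr1 (diamond) is at 22.4 per Mb, with 3 points above it, all of shorter stretches.

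The RAD21 peaks of this stretch varied in length. Nearest Shh, a peak of 136 bp lay 17.7 kb from the gene's upper end, at 28484728 to 28484863. Cut into 4 parts of 201 kb, the stretch held 4 peaks in the part next to Shh, 2 of them at 71 bp, and then 3 peaks, each at 71 bp. The part after that held 5 peaks, 0 of them at 71 bp, and the part next to Lmbr1 6, of which 1 was at 71 bp. Of all 18 peaks 6 were at 71 bp, close to the 33.0% of all RAD21 peaks without CTCF. Each part held few peaks, and differences between the parts were not tested. The longest, 393 bp at 29036712 to 29037104, lay between genes, 569.8 kb above Shh and 158126 bp from the nearest H3K4me3 peak, and was longer than 98.9% of RAD21 peaks without CTCF. Peaks of 253 bp at 29117107 to 29117359, 232 bp at 29131824 to 29132055 and 228 bp at 28911253 to 28911480 were longer than 93.1, 90.6 and 89.9% of that class. A RAD21 peak of 71 bp at 28594465 to 28594535 lay 479 bp from the 397 bp H3K4me3 peak inside 9530036O11Rik.

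Measured between genes rather than between CTCF peaks, the gap from Shh to Rnf32 was 726 kb long, with 1 pair and 14 RAD21 peaks without CTCF. At 19.3 unpaired RAD21 peaks per Mb it was above 615 of 655 gaps of at least 500 kb between protein-coding neighbours, whose median was 7.48. These 14 peaks are among the 18 of the CTCF-free stretch, so this order is no separate result and no test. At 1.38 pairs per Mb it was above 118 of them, with a median of 4.10. At most 1 CTCF peak was found in 14.4% of these gaps. The 3 gaps of similar length with the most similar counts, out of 231, lay between Anxa10 and Spock3 (the same counts in all 4 classes), Triqk and Runx1t1 (1 pair, 12 unpaired RAD21 peaks), and Gpr149 and Mme (2 pairs, 14 unpaired).

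The whole stretch was also compared with 2089 tiled windows of its length. Its 17 CTCF peaks were near their median of 19 (quartiles 8 and 37) and its 12 pairs below their median of 16 (quartiles 7 and 30). Its 25 RAD21 peaks without CTCF were more than in 82.6% of the windows, where the median was 16. The 9 H3K4me3 peaks compared with a median of 7.

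The hedgehog pathway, in which Shh binds Ptch1 and frees Smo to act on the Gli factors, was described from a list of 26 genes. H3K4me3 was at 21 of them (80.8%), compared with 59% of protein-coding genes, CTCF at 5 (19.2%, against 22.9%) and RAD21 at 7 (26.9%, against 35.4%). Among the ligands Shh had none within 1 kb, while Ihh and Dhh had short peaks of 324 and 431 bp and neither CTCF nor RAD21. All 3 genes for ligand release were marked. Of 7 receptors and binding proteins 6 were marked. These included Gas1, a coreceptor, with 1933 bp, Ptch1, the receptor, with 1492 bp, Boc, a coreceptor, with 1243 bp, and Smo, the signal transducer, with 1233 bp. Cdon, a coreceptor related to Boc, had none at its start and 767 bp elsewhere in the gene.

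The Gli transcription factors differed among themselves. Gli2 had 1182 bp of H3K4me3 with CTCF (113 bp) and RAD21 (116 bp), Gli3 had 803 bp with neither, and Gli1 had CTCF (173 bp) and RAD21 (164 bp) without H3K4me3 at an end. Of the 13 transduction genes 10 were marked, and the other 3 were Gli1, Gpr161 and Evc2. Counting peaks anywhere in the gene or within 1 kb of it, 25 of the 26 hedgehog genes had H3K4me3, against 64.9% of protein-coding genes, and Evc2, a ciliary gene, did not. With only H3K4me3 peaks above the list's median length, 13 of the 26 were counted, and the share over all protein-coding genes was 44.7%.

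**Figure D5:**
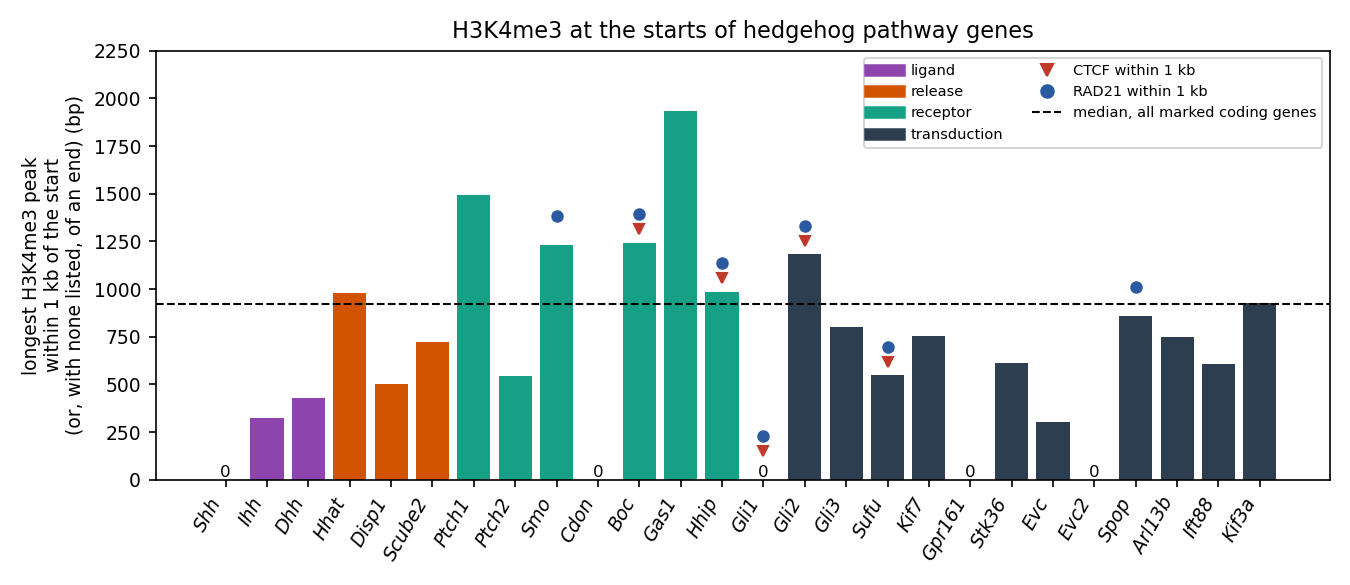
Length in bp (y axis) of the longest H3K4me3 peak within 1 kb of the start of each of 26 hedgehog pathway genes (x axis), coloured by role, with markers (their height carries no value) where CTCF or RAD21 lay within 1 kb; the dashed line is the median of all marked protein-coding genes, 922.5 bp. Gas1, Ptch1, Boc and Smo stand above the line and Shh is at 0.

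Limb regulators and genes of the motor neuron and floor plate were marked at 13 of 20 (65.0%), close to the 59% of all protein-coding genes. Gabpa, an ETS family factor, had 1979 bp, Hand2, a limb bud regulator, 1702 bp, and Mnx1 1613 bp. Hoxd12 and Hoxd13, which act in the distal limb, had none in the gene or within 1 kb, and Ets1 had none at an end and 403 bp elsewhere in the gene. By class, H3K4me3 was at 7 of 12 limb genes and 6 of 8 of the others. CTCF was at 3 of the 20 and RAD21 at 6, where 22.9% and 35.4% of all protein-coding genes had them.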

How the data were processed

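ChIP-exo peak lists of Bruce-4 cells were used as the authors deposited them, as chromosome, start and end, so the unit is other than a count or score: position in bp and the length that follows from it. The submitters' processing notes name MACS2, Picard 2.27.4, Bowtie2 2.4.5 and bedtools 2.30.0 and the build mm10, but no settings. The CTCF list is a union by its name and belongs, in the records, to the second of the CTCF libraries. The first alone was not analysed here.

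Peaks on the 19 autosomes and X were kept, which left out 204 on other contigs. Gene positions were those of RefSeq on GRCm38.p6, which mm10 corresponds to. Starts came from a RefSeq promoter table, which had 17274 of 21631 protein-coding genes (79.9%), and both ends stood in for the other 4357, Shh included. A peak counted for a gene within 1 kb of these points, and inside a segment, gene or window by its midpoint. An overlap was at least 1 bp. With 1 list per antibody no test was possible, and Wilson 95% intervals cover counting error only. Numbers of the whole lists stand beside each count as a description. Overlap counts were tested on simulated data and checked against bedtools 2.31.1. Python 3.11.15, numpy 2.4.6, pandas 2.3.3, scipy 1.17.1 and matplotlib 3.10.9 were used. Exons and introns were not analysed here. The CTCF motif inside CTCF peaks with its orientation was planned but not analysed, because no genome sequence was used.

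The members and gene lists were chosen with earlier results of these data known, and the motifs with the promoter sequences in view. Named genes were the 5 members, the other protein-coding and lncRNA genes of the stretch, and from each list the 3 marked genes with the longest H3K4me3 peaks and the first 3 unmarked in alphabetical order, with Ihh, Dhh, Ptch1, Smo, Gli1, Gli2 and Gli3 in any case. Genes and gaps most like Lmbr1 and like the gap above Shh were ranked by the summed difference in their numbers of pairs, unpaired CTCF, unpaired RAD21 and H3K4me3 peaks, among genes within 10% and gaps within 20% of the length. Other names were added after their values were seen, to complete a count of 5 or fewer. Other overlap rules, peak filters, flanks and gene windows were tried as alternatives.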

Additional observations from a re-analysis of the deposited data

How the results depend on the processing

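With a pair defined by overlap of at least 50% of each peak, the stretch held 6 pairs (35.3% of its CTCF peaks, with 42.9% over the whole list) and Lmbr1 2. With only peaks above each list's median length there were 7 pairs (87.5%, with 71.7% over the whole list), 1 of them in Lmbr1, and 13 hedgehog genes had H3K4me3 (44.7% of all protein-coding genes). The share of paired CTCF peaks was thus below that of the whole list in the first setting and above it in the second, where 8 CTCF peaks were left. The gap above Shh kept a count of 1 pair under all 4 of its alternatives, and the counts of member genes (3 to 5) and of limb and motor neuron genes (10 to 16) stayed within 1.5 times the main count. Flanks of 50 and 200 kb gave 10 and 14 pairs. With edges up to 500 bp apart there were 14 pairs (82.4%, with 84.5% over the whole list), 4 of them in Lmbr1. Without the shortest peaks there were 11 pairs (73.3%, with 87.6% over the whole list), 3 of them in Lmbr1. For RAD21 in the CTCF-free stretch, alternatives chosen after seeing the data gave 0.168% of stretches with more when only RAD21 peaks above the median length of unpaired ones were kept, and 0.826% among stretches with a whole protein-coding gene. No paired analysis was possible because replicate numbers exist for CTCF alone and 1 union list stands for both, so leaving out a replicate was not possible either. The motif alternatives were not run, as no genome sequence was used. Depth was unknown.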

Other observations

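The stretch held 6 lncRNA genes, 9530036O11Rik, Gm42243, Gm35688, Gm35881, Gm42244 and Gm36086. An H3K4me3 peak lay within 1 kb of a start or end at 0 of the 6 and at 18.7% of all lncRNA genes, and a count of 0 among so few is near that share. A 397 bp H3K4me3 peak lay in the body of 9530036O11Rik. RAD21 without CTCF lay inside 9530036O11Rik (6 peaks), Gm35688 (3) and Gm42243 (1), all in the CTCF-free stretch above Shh. Gm35881, of 2.08 kb, held no peak of any list.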
